A study of Mus musculus with 44 samples.

Results

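The 6 genes examined were *Cd40*, *Cd70*, *Tnfsf4*, *Tnfsf9*, *Tnfsf14* and *Cd83*, chosen by symbol from 14699 genes. All 6 were listed, and all 6 were among the 11963 genes that reached at least 1 CPM (reads per 1000000 reads on genes) in at least 5 of 44 libraries. The libraries came from CD45+CD11c+MHCII-high cells, a gate for dendritic cells (DCs), sorted from the draining inguinal lymph node the day after a subcutaneous injection. Control mice (labelled WT) received B16-F10-OVA cells, a mouse melanoma line that expresses ovalbumin, with 5 mice at each of zeitgeber time (ZT, hours after light onset) 3, 9, 15 and 21, or 20 libraries. Mice labelled KO also received B16-F10-OVA cells, with 3 at each timepoint (12 libraries). By the methods of the study they were *Clec9a-cre:Bmal1flox* mice (*Bmal1ΔcDC*), homozygous for a floxed *Arntl*, the gene of the clock protein BMAL1, which is removed by a Cre recombinase under the *Clec9a* promoter of conventional DCs and their precursors. Sham mice had the control genotype and received PBS, with 3 at each timepoint (12 libraries). The question put to these genes was whether they varied with the time of day, with the tumour cells or with the genotype.

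These molecules act when a DC activates a T cell. CD40 is a receptor of the TNF receptor family, and its ligand CD40L on helper T cells licenses the DC. CD70, OX40L (*Tnfsf4*), 4-1BBL (*Tnfsf9*) and LIGHT (*Tnfsf14*) are ligands of the TNF family that sustain T cell division and survival through CD27, OX40, 4-1BB and HVEM. CD83 is an immunoglobulin family protein that marks mature DCs and keeps MHC class II and CD86 at the cell surface.

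The 3 ligand genes *Tnfsf9*, *Cd70* and *Tnfsf14* lie beside each other on chromosome 17, within 88.9 kb and with no other protein-coding gene between them (coordinates of mm10 in RefSeq, GRCm38.p6). *Tnfsf9* occupies chr17:57105287-57107758 on the plus strand, *Cd70* chr17:57145997-57149777 on the minus strand and *Tnfsf14* chr17:57189474-57194181 on the minus strand. The start of *Tnfsf9* overlaps a noncoding RNA gene, *Gm11110*, and the start of *Cd70* another, *Gm33566*. *Tnfsf4* lies at chr1:161395438-161418206, *Cd40* at chr2:165055614-165071654 and *Cd83* at chr13:43785112-43803133, all on the plus strand. A promoter sequence was given for 1 of the 6 genes, *Tnfsf14*, which is also the gene with the widest difference between groups. It is shown because the study deals with BMAL1, which binds the E-box, 5′ to 3′ on the minus strand, with the 1 matched motif in capitals (RefSeq, chr17:57194132-57194431, from 250 bases before to 50 bases after the annotated start).
Tnfsf14 promoter: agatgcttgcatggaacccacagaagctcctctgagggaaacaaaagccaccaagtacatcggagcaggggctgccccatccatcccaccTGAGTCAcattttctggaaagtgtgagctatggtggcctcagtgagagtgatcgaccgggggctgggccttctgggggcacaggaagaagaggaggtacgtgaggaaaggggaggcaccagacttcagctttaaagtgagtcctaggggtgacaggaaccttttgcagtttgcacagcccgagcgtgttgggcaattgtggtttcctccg

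These 300 bases, of which 55.7% were G or C, held no E-box (CACGTG), no CACGTT, no D-box (TTANNTAA) and no CRE (TGACGTCA) on either strand. The capitals mark TGANTCA, the AP-1 motif, as TGAGTCA on the printed strand, 160 bases before the start. Of 32851 mouse promoters of the same length, 7.15% held the E-box, 4.68% CACGTT, 6.0% the D-box, 1.79% the CRE and 7.81% the AP-1 motif. A match describes letters in this window, not a bound site.

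Depth, recovered from the CPM that 1 read is worth in each library, was 20088012 to 28962671 reads on genes in control tumour libraries, 29406729 to 55799163 in *Bmal1ΔcDC* libraries and 28003328 to 49590055 in sham libraries. The ranges did not overlap between control and *Bmal1ΔcDC* libraries with tumour cells, and genotype and depth cannot be told apart. Control tumour and sham libraries overlapped only from 28003328 to 28962671 reads, so tumour cells and depth can hardly be told apart either. The sorted cells carried *Itgax* (CD11c), with a mean of 43.0, 47.2 and 55.0 CPM, and *H2-Ab1* (MHC class II), with 2331, 2597 and 3235 CPM, in the control tumour, *Bmal1ΔcDC* and sham libraries. The level of *Arntl* itself was higher in the libraries labelled *Bmal1ΔcDC* (19.9 ± 6.91 CPM, SD, n = 12) than in control tumour libraries (14.8 ± 3.65 CPM, n = 20), with a log2 difference of 0.38 (SE 0.12, limma adjusted p = 0.0153). Counts over the whole gene do not test a deleted exon, and the libraries are called by what the label says.

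Markers of other cells also differed between the groups. The summed CPM of 6 NK cell genes was 16.6 to 56.3 in control tumour libraries, 37.1 to 159 in *Bmal1ΔcDC* libraries and 80.2 to 601 in sham libraries. Of these genes *Ncr1*, a marker of NK cells though not of them alone, ranged from 0 to 3.68, from 2.68 to 11.3 and from 7.78 to 39.5 CPM. For 8 monocyte and macrophage genes the sums were 395 to 1065, 851 to 3016 and 1722 to 3160, and for 9 genes of dissociation stress (the immediate early and heat shock genes induced when tissue is digested) 2009 to 4044, 3667 to 6615 and 4439 to 7484. *Junb* and *Fos* made up most of that sum, whereas 2 of the 3 heat shock genes ran the other way, with a mean of 89.2, 68.0 and 34.6 CPM for *Hspa1a* and of 97.4, 60.1 and 29.3 CPM for *Hspa1b*, and *Dnajb1* had 91.5, 115 and 90.4 CPM. Sums of the 8 T cell genes listed (of 10 sought) were 223 to 534, 342 to 827 and 453 to 951, those of 8 B cell genes 38.5 to 64.2, 53.1 to 151 and 70.3 to 124, those of 5 plasmacytoid genes 163 to 254, 148 to 341 and 258 to 390, and those of 2 Langerhans cell genes 49.4 to 86.9, 67.5 to 131 and 59.7 to 89.6. The 4 granulocyte genes listed did not exceed 25.9 CPM in sum, and the 5 melanoma genes 14.3. Sums of the 8 genes of mature migratory DCs overlapped among the groups (18524 to 25606, 19656 to 24877 and 15491 to 24597). In such bulk samples fewer cells of a type and less RNA per cell cannot be told apart.

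Levels between genes were compared per kilobase of exons. In control tumour libraries *Cd83* was highest with a mean of 776 CPM per kb, followed by *Cd40* with 250, *Tnfsf9* with 37.3, *Cd70* with 12.2, *Tnfsf4* with 3.58 and *Tnfsf14* with 0.606. In *Bmal1ΔcDC* libraries the values were 1020, 245, 52.8, 10.9, 3.32 and 2.99, and in sham libraries 807, 213, 52.4, 13.4, 3.96 and 4.10. The 4 highest kept their order in each group, whereas *Tnfsf4* and *Tnfsf14*, neighbours in the order, had overlapping CPM ranges in *Bmal1ΔcDC* libraries (2.29 to 8.43 and 2.07 to 11.4) and in sham libraries (1.67 to 12.2 and 1.67 to 14.9). *Tnfsf14* rested on 0 to 66 reads in control tumour libraries, 79 to 523 in *Bmal1ΔcDC* and 70 to 741 in sham libraries. It was at 0 in 2 control libraries, where a count of 0 allows up to 0.133 CPM (3 reads, counting error only).

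**Figure D1:**
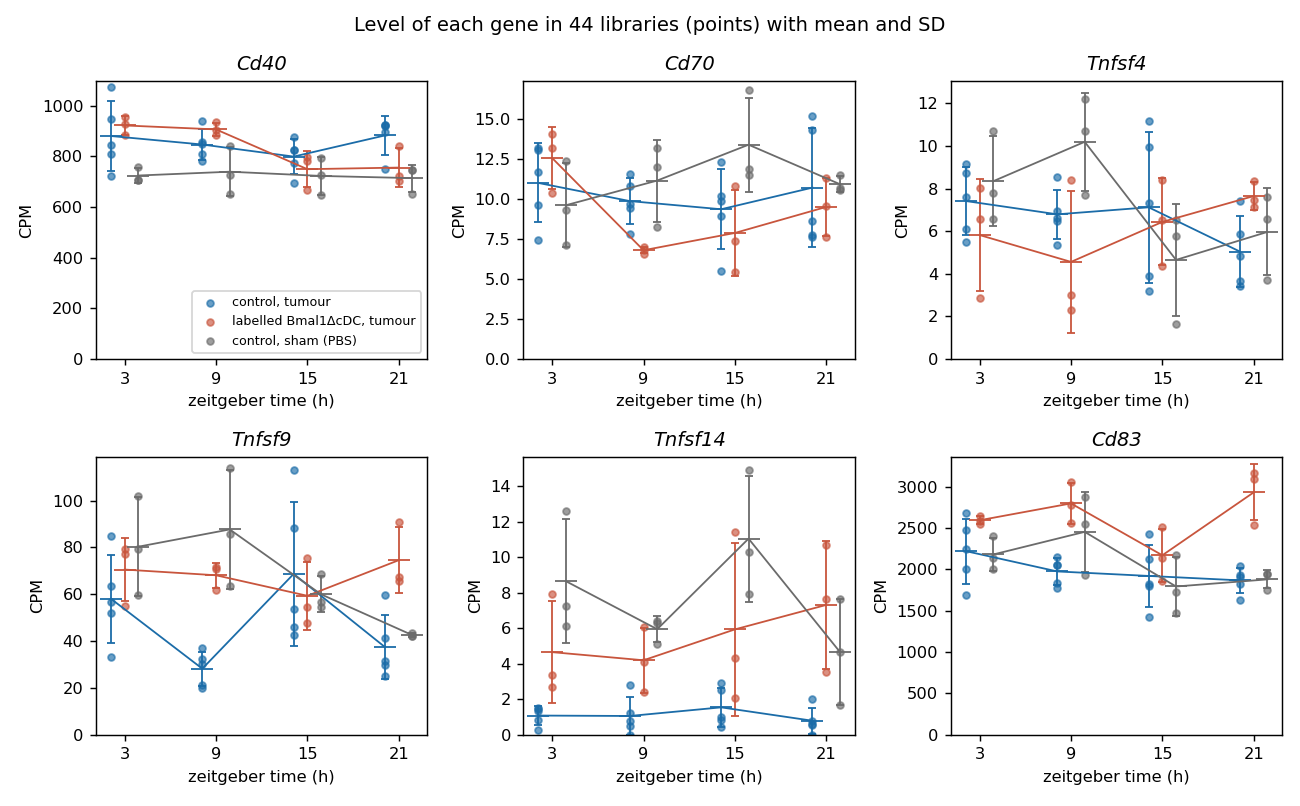
CPM of the 6 genes (vertical axes, linear, from 0) against zeitgeber time (horizontal axes, hours) in control tumour libraries (5 per timepoint), libraries labelled *Bmal1ΔcDC* (3) and sham libraries (3). Points are libraries and lines join means with SD bars; *Tnfsf9* of control tumour libraries is lowest at ZT9, with a mean of 28.2 CPM, and *Tnfsf14* of control tumour libraries does not exceed 2.91 CPM.

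Differences with the time of day mostly did not exceed the spread between mice. Of the 6 genes, only *Tnfsf9* in control tumour mice differed among the 4 timepoints (limma F test on log2(CPM + 0.5), Benjamini-Hochberg adjusted p = 0.0489 over 11963 genes), where 5.28% of all genes were called. It was also the 1 member with an unadjusted p under 0.05 there, against 23.1% of all genes. None of the 6 was called among the timepoints in *Bmal1ΔcDC* or sham libraries, where 0% of all genes were called in either group, and at an unadjusted p under 0.05 there was 1 member in each, *Cd70* (limma adjusted p = 0.443) and *Tnfsf9* (0.602), against 10.3% and 7.44% of all genes. A cosinor of 24 h called 0 of the 6 members in any group, against 0.0251% of all genes in control tumour mice and 0% in the other groups. At an unadjusted p under 0.05 it took 0 members in control tumour mice (9.20% of all genes), *Cd40* (limma adjusted p = 0.455) and *Cd70* (0.426) in *Bmal1ΔcDC* libraries (10.5%) and *Tnfsf9* (0.614) in sham libraries (7.38%). Between ZT9 and ZT21 no member passed a 2-fold change with an adjusted p under 0.05 in limma, whereas 0.0669%, 0.00836% and 0% of all genes did in control tumour, *Bmal1ΔcDC* and sham libraries. At an unadjusted p under 0.05 that contrast took 0, 0 and 1 of the 6 members, the last being *Tnfsf9* in sham libraries, against 11.5%, 10.9% and 5.32% of all genes.

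Averaged over the timepoints, 3 of the 6 members differed between tumour and sham in control mice, and 3 differed between libraries labelled *Bmal1ΔcDC* and control libraries with tumour cells. With tumour cells, *Cd40* was higher, and *Tnfsf9* and *Tnfsf14* were lower than in sham mice. In *Bmal1ΔcDC* libraries *Tnfsf9*, *Tnfsf14* and *Cd83* were higher than in control libraries. Many genes passed these tests, with 37.9% of all genes called between tumour and sham (13.3% higher, 24.6% lower) and 33.7% between the genotypes (23.5% higher, 10.2% lower), so 3 of 6 members is not far from this background. Median-of-ratios scaling moved the share of higher calls from 35.1% to 46.2% of the calls between tumour and sham and from 69.8% to 49.8% between the genotypes. All 6 averaged member calls held under that scaling. Both comparisons use the same 20 control tumour libraries, so their results are not independent of each other.

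**Figure D2:**
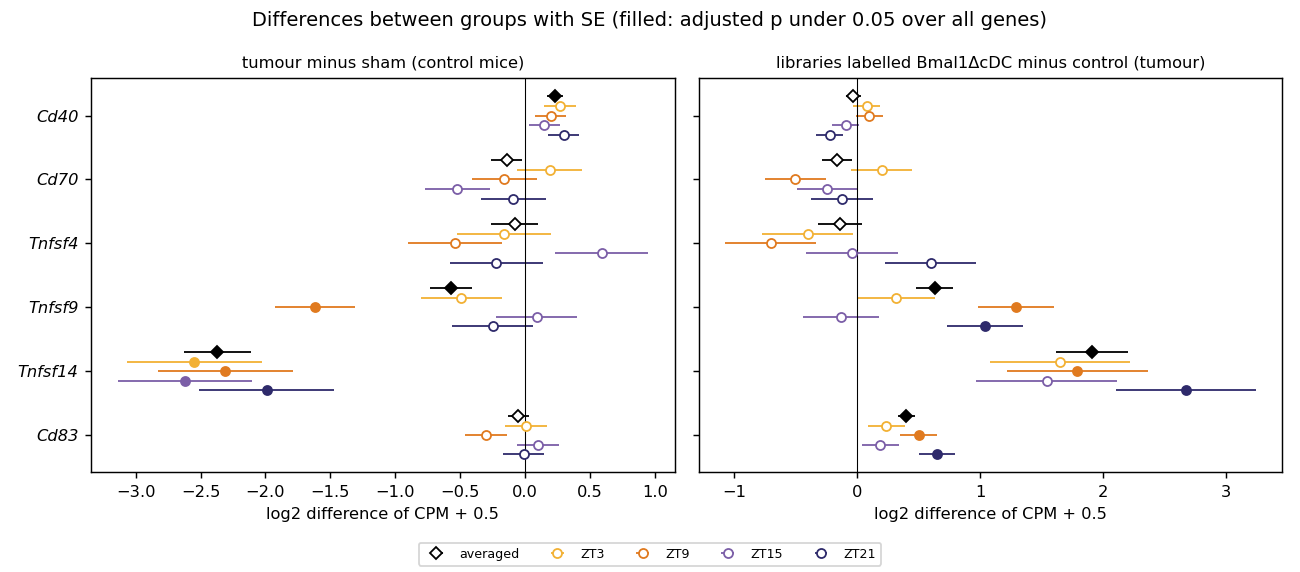
Differences on the log2(CPM + 0.5) scale (horizontal axes) for the 6 genes, tumour minus sham in control mice on the left and libraries labelled *Bmal1ΔcDC* minus control libraries with tumour cells on the right. Diamonds average the 4 timepoints, circles are single timepoints, bars are SE and filled symbols have an adjusted p under 0.05; on the left *Tnfsf14* is filled at all 4 timepoints, and of the timepoints of *Tnfsf9* only ZT9 is.

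*Cd40*, the receptor through which helper T cells license DCs, was higher in mice with tumour cells. In control tumour libraries its level was 697 CPM at the lowest, 847 at the median and 1076 at the highest, in sham libraries 648, 726 and 843, and in *Bmal1ΔcDC* libraries 669, 863 and 956. Of 20 control tumour libraries, 11 lay above every sham library, and the group ranges overlapped. The averaged difference between tumour and sham was 0.23 on the log2 scale (SE 0.06, limma adjusted p = 0.00289), and permutation of the labels within timepoints (100000 resamples, two-sided) gave p = 0.000190. Its mean was higher with tumour cells at 4 of 4 timepoints, by 0.27, 0.20, 0.15 and 0.30 at ZT3, ZT9, ZT15 and ZT21 (SE 0.12 each), although no single timepoint passed. Of the 8 genes of mature migratory DCs, 3 were also higher with tumour cells, *Fscn1* by 0.44, *Cacnb3* by 0.30 and *Il4i1* by 0.26 (limma adjusted p = 0.000193, 0.0154 and 0.00110), 1, *Samsn1*, was lower by 0.17 on the log2 scale, and the other 4 did not pass, with a median of 0.09 over the list. Over all genes 13.3% were called higher and 24.6% lower in this comparison. The part of DC maturity or makeup in the level of *Cd40* was not tested. Between the genotypes the difference of -0.03 (SE 0.06) had a 95% interval from -0.15 to 0.08.

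Within *Bmal1ΔcDC* libraries *Cd40* was 883, 956 and 928 CPM at ZT3 and 883, 934 and 903 at ZT9, against 782, 669 and 798 at ZT15 and 721, 843 and 704 at ZT21. The libraries of the light phase did not overlap those of the dark phase. The one-way F over the timepoints on CPM gave an exact permutation p = 0.0163 in this group, which was not adjusted for the 18 such tests of 6 genes in 3 groups, and the limma F test had an adjusted p of 0.547. In control tumour libraries the means were 881, 847, 799 and 883 CPM, with p = 0.450 by permutation, and in sham libraries 725, 740, 723 and 714 CPM, with an exact permutation p of 0.976. In *Bmal1ΔcDC* libraries 6 of 8 monocyte and macrophage genes and 6 of 9 stress genes had an unadjusted limma p under 0.05 among timepoints. So did 4 of 6 type 2 DC genes and 0 of 6 NK cell genes, against 10.3% of all genes. None of these was called, and their part in the course of *Cd40* was not tested.

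*Tnfsf9*, which encodes the 4-1BB ligand that prolongs CD8+ T cell responses, was the member that moved with the time of day in control tumour mice. The 5 libraries held 84.7, 51.9, 56.7, 33.3 and 63.7 CPM at ZT3, 30.4, 37.0, 21.4, 32.4 and 19.9 at ZT9, 88.2, 113, 42.4, 46.0 and 53.8 at ZT15, and 25.0, 31.4, 59.5, 41.3 and 29.9 at ZT21. Levels were thus low at ZT9, and every library of ZT15 lay above every library of ZT9, whereas ZT21 overlapped its neighbours. Means were 58.1 ± 18.7, 28.2 ± 7.33, 68.7 ± 30.7 and 37.4 ± 13.7 CPM (SD, n = 5), low and high at alternate timepoints, a course that a 24-h cosine does not describe (amplitude 0.21, adjusted p = 0.858). The highest and lowest timepoint differed by 1.20 on the log2 scale, and permutation of the one-way F on CPM gave p = 0.0168 (100000 resamples). This call was close to its threshold and was lost in 16 of 20 omissions of 1 control tumour library, with an adjusted p from 0.0264 to 0.101.

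Mean sums of the stress genes and of the monocyte and macrophage genes were also lower at ZT9 and ZT21 than at ZT3 and ZT15 in these libraries, whereas the NK cell sum was lowest at ZT9 only. The 9 stress genes summed to 3487, 2320, 3671 and 2382 CPM at ZT3, ZT9, ZT15 and ZT21, the 8 monocyte and macrophage genes to 844, 473, 953 and 624, and the 6 NK cell genes to 31.2, 18.3, 39.9 and 32.7. Of these, 4 of 9, 6 of 8 and 3 of 6 genes were called among the timepoints in control tumour mice, against 5.28% of all genes, as were 3 of 6 type 2 DC genes and 2 of 8 T cell genes, and none of the B cell, plasmacytoid and Langerhans cell genes tested. Their part in the course of *Tnfsf9* was not tested.

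In sham libraries *Tnfsf9* was 59.6, 79.3 and 102 CPM at ZT3, 114, 85.6 and 63.4 at ZT9, 56.5, 54.7 and 68.7 at ZT15, and 43.4, 42.0 and 42.2 at ZT21. The highest mean of sham mice was thus at ZT9, where control tumour mice had their lowest, and all 3 libraries of ZT9 lay above those of ZT21. The difference between ZT9 and ZT21 was 0.99 (SE 0.24), with an unadjusted p = 0.00179 and a limma adjusted p of 0.766, and the exact permutation p of the one-way F was 0.0501. All 9 stress genes were also higher at ZT9 than at ZT21 in sham libraries, with a median of 0.50 against 0.03 over all genes. None of them was called, and 5 had an unadjusted limma p under 0.05 (5.32% of all genes). Their part was not tested. Libraries labelled *Bmal1ΔcDC* held 77.1, 79.5 and 55.0 CPM at ZT3, 71.5, 70.8 and 62.0 at ZT9, 54.7, 75.6 and 47.7 at ZT15, and 65.6, 90.7 and 67.3 at ZT21. The timepoints overlapped in that group (exact permutation p = 0.525).

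Tumour and sham therefore differed in *Tnfsf9* at ZT9. The averaged difference was -0.57 (SE 0.16, limma adjusted p = 0.00523, permutation p = 0.00720), and 10 of 20 control tumour libraries lay below every sham library. With the replicate number as a block in the fit, the averaged difference was -0.44 and did not pass (limma adjusted p = 0.0656). At ZT9 the difference was -1.62 (SE 0.31, adjusted p = 0.000573), with no overlap between 19.9 to 37.0 and 63.4 to 114 CPM. At ZT3, ZT15 and ZT21 it was -0.49, 0.09 and -0.25 (SE 0.31 each), and none of these passed. The interaction with time had an unadjusted p = 0.00411, but an adjusted p of 0.199, so a change of the effect over the day was not called. No member and 0% of all genes passed that interaction, in which *Tnfsf9* was the 1 member with an unadjusted p under 0.05, against 11.9% of all genes.

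Libraries labelled *Bmal1ΔcDC* held more *Tnfsf9* than control libraries with tumour cells at the timepoints at which the control libraries were low. The averaged difference was 0.63 (SE 0.15, limma adjusted p = 0.00246, permutation p = 0.00232). It was 1.29 at ZT9 (SE 0.31, adjusted p = 0.00846) and 1.04 at ZT21 (SE 0.31, adjusted p = 0.0254), where the groups did not overlap, and 0.32 at ZT3 and -0.13 at ZT15, which did not pass. Under median-of-ratios scaling the value at ZT21 was 0.91 (adjusted p = 0.0589), and the call there was lost in 5 of 32 omissions of 1 library. The interaction with time had an unadjusted p = 0.0115 and an adjusted p of 0.178. No member was called there, against 0.0502% of all genes, and *Tnfsf9* alone of the 6 had an unadjusted p under 0.05, against 18.3% of all genes.

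The genes whose levels followed *Tnfsf9* most closely were cytokine genes. After the mean of each group and timepoint was subtracted, Pearson's r over the 44 libraries was 0.85 with *Tnf*, 0.83 with *Cxcl1* and 0.82 with *Il1b*, and without that subtraction 0.90, 0.88 and 0.90. The values of both genes in a point come from the same library, with its own depth and cell makeup, so these correlations are a description. *Tnf* and *Il1b* were also called among the timepoints in control tumour mice (adjusted p = 0.0197 and 0.0281), whereas *Cxcl1* was not (0.365). Of the other members, *Cd83* came closest to *Tnfsf9*, with 0.55 after subtraction of the means.

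**Figure D3:**
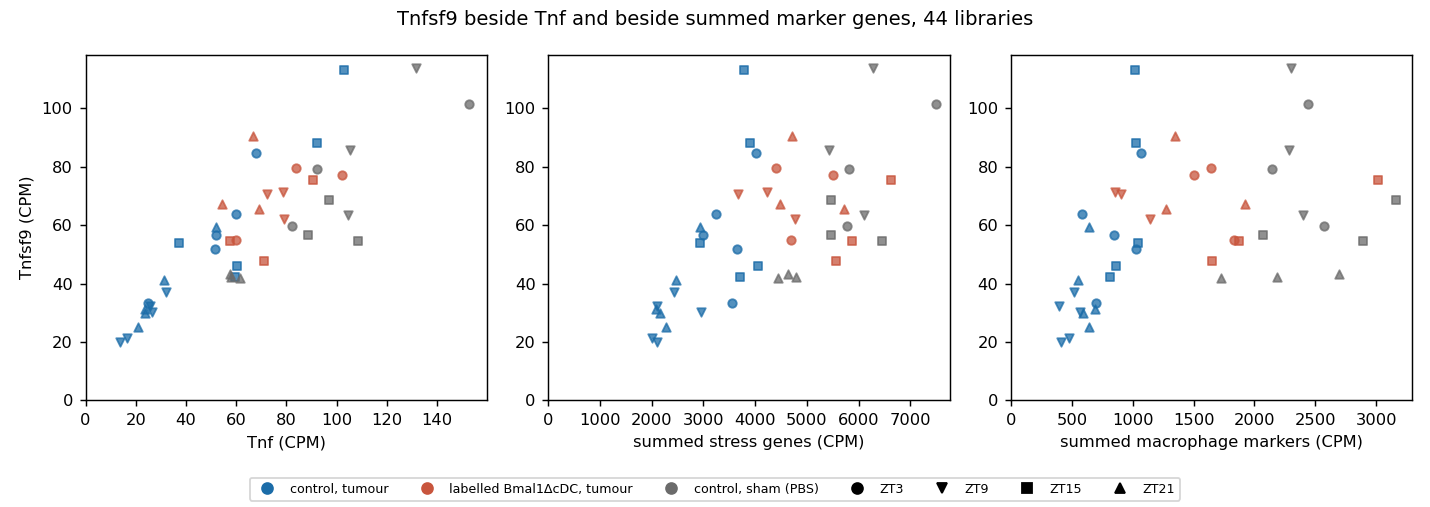
CPM of *Tnfsf9* (vertical axis) against CPM of *Tnf*, against the summed CPM of 9 stress genes and against the summed CPM of 8 monocyte and macrophage genes (horizontal axes) in 44 libraries. Colours are groups and symbols timepoints; control tumour libraries of ZT9 lie at the lower left of each plot, with 19.9 to 37.0 CPM of *Tnfsf9*.

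*Tnfsf14*, the gene of LIGHT, which is also made by activated T cells and NK cells, had the widest difference of the 6 members in both averaged comparisons and, in control tumour and *Bmal1ΔcDC* libraries, the lowest mean CPM. In control tumour libraries it was 0 CPM at the lowest, 0.828 at the median and 2.91 at the highest, in *Bmal1ΔcDC* libraries 2.07, 4.22 and 11.4, and in sham libraries 1.67, 6.83 and 14.9. Of the 20 control tumour libraries, 16 lay below every sham library, with no overlap at ZT3, ZT9 and ZT15, and 9 of the 12 *Bmal1ΔcDC* libraries lay above every control tumour library. The averaged difference between tumour and sham was -2.37 (SE 0.26, limma adjusted p = 5.03e-08). Permutation gave p = 1e-05, the smallest that 100000 resamples allow.

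At single timepoints *Tnfsf14* was lower with tumour cells at each of the 4. Sham libraries held 7.23, 6.10 and 12.6 CPM at ZT3, 6.43, 5.11 and 6.28 at ZT9, 10.3, 14.9 and 7.91 at ZT15, and 7.65, 1.67 and 4.67 at ZT21, against means of 1.08, 1.06, 1.54 and 0.790 CPM in control tumour mice. The differences were -2.55, -2.31, -2.62 and -1.99 (SE 0.52 each, limma adjusted p = 0.00185, 0.00276, 0.00115 and 0.0146). The other member called at a single timepoint of this comparison was *Tnfsf9* at ZT9, so the counts were 1, 2, 1 and 1 of 6 members, against 10.5%, 16.3%, 17.6% and 9.21% of all genes. The call at ZT21 was lost without sham replicate 1 (-1.56, adjusted p = 0.129) and without sham replicate 3 (-1.89, adjusted p = 0.0634).

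Between the genotypes *Tnfsf14* was higher in *Bmal1ΔcDC* libraries, by 1.91 averaged over the timepoints (SE 0.29, limma adjusted p = 1.01e-05, permutation p = 1e-05, again the smallest possible). Those libraries held 7.92, 2.68 and 3.35 CPM at ZT3, 4.12, 2.41 and 6.05 at ZT9, 11.4, 2.07 and 4.32 at ZT15, and 10.7, 3.56 and 7.66 at ZT21. They lay above all control libraries at ZT3 and ZT21 and overlapped them at ZT9 and ZT15. The difference passed at ZT9 (1.79, SE 0.57, adjusted p = 0.0491) and ZT21 (2.67, SE 0.57, adjusted p = 0.00270), and was 1.65 at ZT3 (adjusted p = 0.0948) and 1.54 at ZT15 (adjusted p = 0.0670). The call at ZT9 was lost in 20 of 32 omissions of 1 library. Median sums of the NK cell, T cell, B cell, plasmacytoid, monocyte and macrophage, and stress genes moved with the groups in the same direction as *Tnfsf14*. So did those of the sorted DC (16070, 17005 and 19833 CPM in control tumour, *Bmal1ΔcDC* and sham libraries), type 2 DC, Langerhans cell, granulocyte and melanoma genes. Those of type 1 DC (825, 810 and 1112) and mature migratory DC genes (22223, 22560 and 20257) did so in only 1 of the comparisons each. Depth, given above, also moved in the direction of *Tnfsf14*, and the part of all these in its level was not tested. No time course was called in any group, with permutation p = 0.618 in control tumour, 0.709 (exact) in *Bmal1ΔcDC* and 0.0912 (exact) in sham libraries.

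Among genes of at least 5 CPM, *Sfxn1* and *Igf1r* were most like *Tnfsf14* after subtraction of the group and timepoint means, with r of 0.59 each. Without that subtraction r was 0.85 and 0.15. With its neighbours on chromosome 17 *Tnfsf14* had an r of 0.08 (*Tnfsf9*) and 0.03 (*Cd70*) after subtraction, and of 0.51 and 0.05 without it.

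*Cd70*, the ligand of CD27, kept a low level in every group. It was 5.49 CPM at the lowest, 9.80 at the median and 15.2 at the highest in control tumour libraries, 5.47, 8.62 and 14.1 in *Bmal1ΔcDC* libraries and 7.16, 11.5 and 16.8 in sham libraries. The 3 ranges overlapped. Its averaged difference was -0.14 between tumour and sham (95% interval -0.40 to 0.11) and -0.16 between the genotypes (-0.42 to 0.09), and neither passed. Within *Bmal1ΔcDC* libraries it was 13.2, 14.1 and 10.4 CPM at ZT3 and 6.99, 6.82 and 6.60 at ZT9, without overlap, and the exact permutation p over the 4 timepoints was 0.0319 (limma adjusted p = 0.443). At ZT9 these 3 libraries lay below all 5 control tumour libraries (7.83 to 11.6 CPM), with a difference of -0.50 that did not pass (adjusted p = 0.229).

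*Tnfsf4*, the gene of the OX40 ligand, was also low and did not differ between groups beyond its spread. Its level was 3.21, 6.56 and 11.2 CPM (lowest, median and highest) in control tumour libraries, 2.29, 6.84 and 8.43 in *Bmal1ΔcDC* libraries and 1.67, 7.11 and 12.2 in sham libraries. Averaged differences were -0.08 between tumour and sham (95% interval -0.45 to 0.29) and -0.14 between the genotypes (-0.51 to 0.24). These intervals leave room for changes of up to 1.22-fold and 1.18-fold upwards and to 0.733-fold and 0.702-fold downwards. In sham libraries it was 12.2, 7.70 and 10.7 CPM at ZT9 and 5.77, 1.67 and 6.53 at ZT15, the widest step of its courses, with an exact permutation p of 0.0584. The genes most like it were *Efhd2*, *Gstt1* and *Mon1b* (r = 0.58, 0.57 and 0.56), and those most like *Cd70* were *Ift22*, *Spint2* and *Znhit3* (0.52, 0.52 and 0.51).

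*Cd83*, the marker of DC maturation, was the most abundant member and was higher in libraries labelled *Bmal1ΔcDC*. It was 1426 CPM at the lowest, 1964 at the median and 2687 at the highest in control tumour libraries, 1864, 2573 and 3161 in *Bmal1ΔcDC* libraries and 1474, 1975 and 2881 in sham libraries. Of the 12 *Bmal1ΔcDC* libraries, 4 lay above every control tumour library. The averaged difference between the genotypes was 0.40 (SE 0.07, limma adjusted p = 0.000187, permutation p = 4e-05), and 0.30 under median-of-ratios scaling. Between tumour and sham it was -0.05, with a 95% interval from -0.22 to 0.11.

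At ZT9 the *Bmal1ΔcDC* libraries held 2778, 2556 and 3060 CPM of *Cd83* against 2058, 2156, 1839, 2051 and 1773 in control tumour libraries, and at ZT21 3161, 3091 and 2542 against 1825, 1629, 2046, 1908 and 1929. The groups did not overlap at either timepoint, with differences of 0.50 (SE 0.15, limma adjusted p = 0.0342) and 0.65 (SE 0.15, adjusted p = 0.00487). At ZT3 and ZT15 the differences were 0.24 and 0.19 and did not pass. The call at ZT9 was lost in 6 of 32 omissions, with values from 0.44 to 0.57. With *Tnfsf9* and *Tnfsf14*, 3 of 6 members were called at ZT9 (8.94% of all genes) and 3 at ZT21 (14.2%), whereas 0 were called at ZT3 (5.20%) and at ZT15 (14.8%). The median over all genes was itself 0.25 at ZT15 and 0.12 at ZT21 in this comparison, and 0.04 and 0.00 under median-of-ratios scaling, where the value of *Cd83* at ZT15 became -0.03. Within *Bmal1ΔcDC* libraries the 3 of ZT15 (1864, 2142 and 2507 CPM) were the lowest of the 12, with an exact permutation p of 0.0306 over the timepoints, not adjusted for the 18 such tests, and a limma adjusted p of 0.535.

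*Cd83* was most like *Ppp1r15a* (a gene of the integrated stress response), *Rgs1* and *Ccr7* (the receptor that guides DCs to the lymph node), with r of 0.84, 0.80 and 0.79 after subtraction of the means. *Ppp1r15a* and *Rgs1* were also higher in *Bmal1ΔcDC* libraries, by 0.66 and 0.37 (limma adjusted p = 3.56e-06 and 0.00378), whereas *Ccr7* differed by 0.13 (adjusted p = 0.110). The stress gene sum was higher there too, with 6 of its 9 genes called higher and *Hspa1b* called lower, while *Jun* had a mean of 173 against 191 CPM. Over all genes 23.5% were called higher and 10.2% lower between the genotypes. The part of the stress genes in the level of *Cd83* was not tested. *Cd40* was most like *Arl5c*, *Serpinb9* and *Tango2* (r = 0.70, 0.70 and 0.68) and had an r of 0.52 with *Cd83*. *Cd80*, another co-stimulator and the gene the study followed, did not pass in either averaged comparison (0.14, adjusted p = 0.264, and -0.16, adjusted p = 0.225). The study compared *Cd80* among timepoints, which an averaged difference does not address. In control tumour libraries the limma F test among timepoints gave an unadjusted p = 0.00315 for *Cd80* (adjusted 0.0539). It gave 0.138 (adjusted 0.588) in *Bmal1ΔcDC* and 0.00364 (adjusted 0.496) in sham libraries.

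Among the other ligands of the TNF family, 10 of the 12 tested were lower with tumour cells than in sham mice and none was higher, where 24.6% of all genes were lower. The median difference of the 12 was -1.24 on the log2 scale, against -0.04 over all genes. The most abundant, *Ltb* (lymphotoxin beta), had a mean of 87.4 CPM in control tumour and 172 CPM in sham libraries, and *Tnf* 43.7 and 95.0 CPM. *Cd40lg*, the ligand of CD40 on helper T cells, differed by -2.10 (SE 0.14), *Fasl* by -2.13, *Tnfsf11* by -1.91, *Tnfsf10* by -1.31, *Tnfsf8* by -1.25, *Tnfsf13* by -1.23, *Lta* by -1.18 and *Tnfsf12* by -0.52. *Tnfsf13b* (-0.39) and *Tnfsf15* (-0.47) did not pass. *Cd40lg* and *Fasl* are known from T cells and NK cells, whose marker genes were lower too (7 of 8 T cell genes tested and 6 of 6 NK cell genes), and the part of those cells was not tested.

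In libraries labelled *Bmal1ΔcDC*, 8 of the same 12 ligands were higher than in control libraries with tumour cells and none was lower (23.5% of all genes were higher), with a median of 0.89 against 0.10 over all genes. These were *Fasl* (1.61), *Tnfsf11* (1.19), *Cd40lg* (1.06), *Tnf* (0.94), *Lta* (0.93), *Tnfsf10* (0.92), *Tnfsf8* (0.86) and *Ltb* (0.56). Of the NK cell genes 5 of 6 were higher, of the monocyte and macrophage genes 7 of 8 and of the T cell genes 3 of 8 (*Cd3e*, *Cd3g* and *Cd4*), while *Cd3d* had a mean of 46.4 CPM against 45.5 in control libraries, *Cd28* 20.5 against 21.7 and *Cd5* 22.6 against 27.6. The part of those cells was not tested here either. None of the called genes of the pathway lists changed direction under median-of-ratios scaling in either averaged comparison, and the calls of *Btla* and *Nfkbia* between the genotypes were lost. Within control tumour mice 2 of the 12 were called among the timepoints, *Tnf* and *Ltb* (adjusted p = 0.00560), against 5.28% of all genes.

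**Figure D4:**
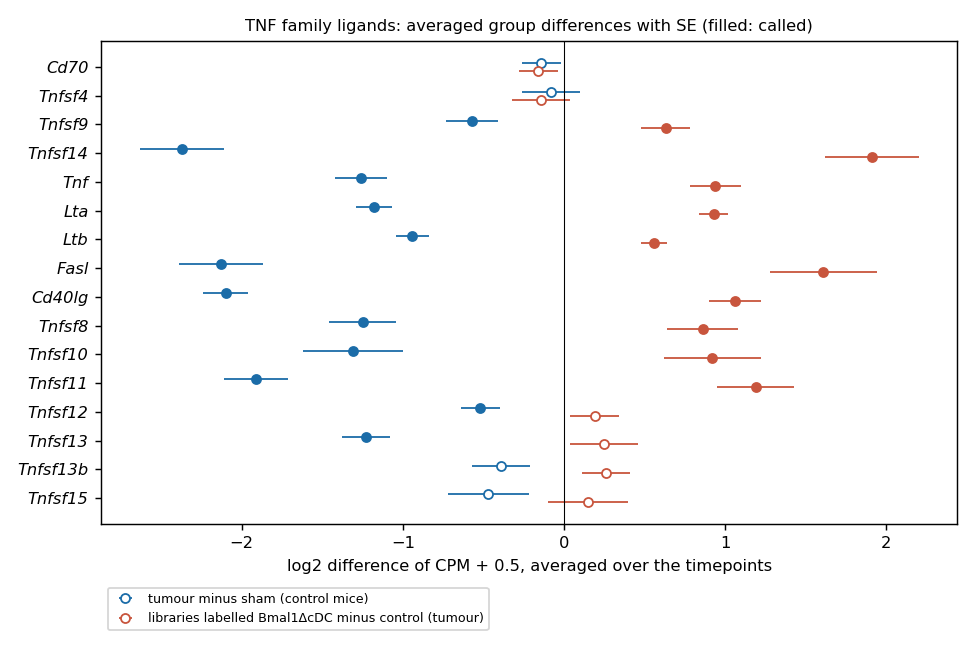
Averaged differences on the log2(CPM + 0.5) scale (horizontal axis) with SE bars for 16 TNF family ligands (4 of the 6 genes and 12 others), tumour minus sham in control mice and libraries labelled *Bmal1ΔcDC* minus control libraries with tumour cells. Filled circles have an adjusted p under 0.05; both sets of points share the 20 control tumour libraries, and *Cd70*, *Tnfsf4*, *Tnfsf13b* and *Tnfsf15* are open in both.

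Receptors moved less uniformly. Of 23 tested, 12 were called between tumour and sham, 6 higher and 6 lower (median 0.04), and 6 between the genotypes, 4 higher and 2 lower (median 0.04). Over all genes 37.9% and 33.7% were called. The 23 included *Btla*, which is not of the TNF receptor family, called at -0.60 between tumour and sham and 0.44 between the genotypes. The receptors of the members themselves were mostly level. *Tnfrsf4* (OX40) had a mean of 469, 420 and 448 CPM and *Tnfrsf9* (4-1BB) of 275, 274 and 256 CPM in the control tumour, *Bmal1ΔcDC* and sham libraries, and neither these nor *Cd27* and *Ltbr* passed in either comparison. *Tnfrsf14* (HVEM), the receptor of LIGHT, was low and moved in the opposite direction to its ligand, with 2.48, 0.932 and 1.30 CPM, a difference of 0.73 between tumour and sham (SE 0.15, limma adjusted p = 0.000354) and of -1.11 between the genotypes (SE 0.18, adjusted p = 2.26e-05). *Tnfrsf1b* (TNF receptor 2), the most abundant, was higher with tumour cells by 0.27, and *Tnfrsf11a* (RANK) by 0.53. *Tnfrsf25* was lower by 1.80 and *Tnfrsf1a* by 0.54 on the log2 scale, and both were higher in *Bmal1ΔcDC* libraries, by 1.28 and 0.37. Among the timepoints of control tumour mice 1 of the 23 was called, *Cd27* (adjusted p = 0.0193), against 5.28% of all genes.

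In the signalling list below CD40 and the TNF receptors, 8 of 19 genes were called between tumour and sham, 6 higher and 2 lower, with a median of 0.16, against 37.9% of all genes called. The NF-kB subunits *Rela* (0.28), *Rel* (0.25), *Relb* (0.24) and *Nfkb2* (0.22) were higher with tumour cells, whereas the subunit *Nfkb1* did not pass (-0.10, adjusted p = 0.388). Also higher were *Traf1* (0.27), an adaptor of the receptors, and *Birc3* (0.23), which encodes a ubiquitin ligase that TRAF proteins recruit. The inhibitor *Nfkbia* (-0.34) and *Traf4* (-0.75) were lower. Between the genotypes 5 of 19 were called, with a median of -0.02, against 33.7% of all genes. *Tnfaip3*, which encodes the feedback inhibitor A20, was higher by 0.54, *Traf5* by 0.31, and *Tank* and *Nfkbia* by 0.26 each, whereas *Relb* was lower by 0.20 on the log2 scale.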

How the data were processed

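RNA of sorted cells was amplified with SMART-Seq v4 and sequenced as single reads of 50 bases. The authors aligned reads with STAR to mm10, counted them per gene with HTSeq 0.9.1 and used edgeR for the scaling by library size, and the deposited values are CPM, which sum to 1000000 per library. Between 85.9% and 87.7% of positive values came out as whole reads (tolerance 0.001), so no count test was run. Log2(CPM + 0.5) was fitted with limma 3.58.1 in R 4.3.3 over the 11963 genes that 5 or more libraries held at 1 CPM or more, with Benjamini-Hochberg adjustment over all of them. Group fits used timepoint means, a cosinor of 24 h or contrasts between groups. Each member was also tested by permutation with Python 3.11.15 and numpy 2.4.6, for the one-way F within each group and for each averaged difference. The code was tested on simulated data. The labels give a sample number but not the mouse, the experiment or the day, and differences between experiments or days were not tested.

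The members and lists were chosen with earlier results of these data known. Besides the 6 members, genes could be named that passed in any comparison or had the 3 highest means of their list (other TNF ligands, receptors, TRAF and CD40 signalling), the 3 genes most like each member (1 of these is not reported here), *Arntl* and *Cd80*. For CD83 surface stability *March1*, *Marchf1*, *March8* and *Marchf8* were sought and matched no symbol; whether these genes stand under other names was not settled, and they were not analysed here. Marker lists covered the sorted DCs, their subsets and the other cells named in the report; sums of type 1 DC genes were 704 to 1018, 752 to 1028 and 907 to 1418 CPM and of type 2 DC genes 137 to 283, 143 to 629 and 191 to 374 CPM in control tumour, *Bmal1ΔcDC* and sham libraries. Depth is given in the report. Alternatives were other pseudocounts, filters and scaling, array weights, 1 fit of all libraries, a replicate block and the omission of each library.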

Additional observations from a re-analysis of the deposited data

Results flagged for a closer look

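*Cd40* in control tumour replicate 3 of ZT21 was 749 CPM, whereas the other 4 libraries of that timepoint held 897 to 925 CPM. Its gap to the nearest library was 0.843 of the range of the group, above Dixon's 95% limit for 5 samples. Of 24 groups of 5 libraries tested this was the 1 that stood out, and chance gives about 1 in 20.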

How the results depend on the processing

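Of 737 values recomputed under other settings, 720 kept their direction and side of the threshold, and of 2108 values with 1 library left out 2053 did. The 6 averaged calls of members held in each omission and under each alternative in which the gene was tested, except *Tnfsf9* between tumour and sham under the replicate block. Where a call changed, the cause was not tested unless stated.

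The count of members called among the timepoints in control tumour mice was 0 with a pseudocount of 0.1, with no filter and with the replicate block (adjusted p of *Tnfsf9* 0.0563, 0.0592 and 0.0874), and 0 to 1 over omissions. Between genotypes at ZT15 the count was 1 with a pseudocount of 1 and with all 44 libraries in 1 fit (*Tnfsf14*, adjusted p = 0.0469 and 0.0484), and 0 to 1 over omissions, the 1 being without *Bmal1ΔcDC* replicate 2 of ZT15. At ZT9 it was 1 to 3 over omissions. Between tumour and sham at ZT21 it was 0 to 1. With array weights, whose estimation stopped before it converged in 1 of the fits, 1 member, *Tnfsf9*, passed the interaction of genotype and time (adjusted p = 0.0493). A filter at a mean of 10 CPM removed *Tnfsf4* and *Tnfsf14*, and so gave 0, 1, 0 and 0 members between tumour and sham at ZT3, ZT9, ZT15 and ZT21. The same filter also removed low genes of the other TNF lists, such as *Tnfrsf14*. Of those lists, which hold neither *Tnfsf4* nor *Tnfsf14*, 12 genes were then called between genotypes, a count that rests on fewer tested genes. Over omissions with the usual filter that count was 18 to 23.

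*Tnfsf14* between genotypes at ZT9 was 2.48 (adjusted p = 0.0788) with a pseudocount of 0.1 and 1.79 (0.0581) with no filter. Median-of-ratios scaling gave the opposite sign for *Tnfsf9* between ZT9 and ZT21 in *Bmal1ΔcDC* libraries (0.01) and for *Cd83* between genotypes at ZT15 (-0.03). Over omissions *Tnfsf9* ranged from -0.32 to 0.08 between genotypes at ZT15, from -0.11 to 0.24 between tumour and sham at ZT15, from -0.20 to 0.03 between ZT9 and ZT21 in *Bmal1ΔcDC* libraries and from 0.89 to 1.22 between genotypes at ZT21. *Tnfsf14* ranged from 1.44 to 2.12 at ZT9 and from 0.95 to 2.06 at ZT15 between genotypes, and from -2.52 to -1.56 between tumour and sham at ZT21.

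The replicate numbers did not pair the samples, since libraries of the same number in different groups deviated together no more than others (r from -0.24 to 0.19, median 0.00, 210 pairs). With the replicate block *Cd70* was 0.03 between tumour and sham and -0.33 between genotypes (adjusted p = 0.0437), *Tnfsf9* was -0.44 between tumour and sham (0.0656) and 0.91 between genotypes at ZT21 (0.0535), and at ZT9 *Tnfsf14* was 1.82 (0.0650) and *Cd83* 0.47 (0.0896), leaving 1 member called there. Depth limits *Tnfsf14* most, with a median of 20 reads in control tumour libraries.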
